A study of Homo sapiens with 10 samples.

Results

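A row of 4 transcripts in the deposited tables, uc001mah, uc001mai, uc001maj and uc001mak, was followed across all 10 libraries together with 4 rows whose transcript identifiers stand beside its own. Each row is a gene cluster of the annotation and is named here by its first identifier, so that this one, gene cluster 4232's entry in the files, is row uc001mah. The members are this row and every other row with an identifier in the alphabetical stretch from uc001mae to uc001mam, a stretch taken as the beta-globin locus. The rule gave 5 of 31848 rows, which are uc001mae, uc001maf, uc001mag, uc001mah and uc001mal. Row uc001mah was put forward as a candidate for HBG1, the gene the guide was designed against, because of its counts in these same libraries. Its levels are therefore given as a description without a test. The other 4 rows, called the neighbours here, were chosen by identifier, from a stretch that was set with earlier results of these data known.

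The beta-like globin genes lie in a row on chromosome 11 and encode the beta-type chains of haemoglobin. They are switched in order through development, from the embryonic gene HBE1 through the fetal genes HBG1 and HBG2 to the adult genes HBD and HBB, and in red cell precursors a distant enhancer, the locus control region, drives them. HBBP1 is a pseudogene between the adult and fetal genes. HBG1 and HBG2 are near-identical copies, so short reads often fit both. HEK293T, a transformed human embryonic kidney line, is not an erythroid cell, and silent globin genes are common test targets for artificial activators in such lines.

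The libraries are poly(A) RNA from HEK293T cells that fall into 5 groups of 2, named Guide Only Control, VP64, VPR, Suntag and SAM. Cells of the 4 activator groups received an activator built on dCas9, a catalytically dead Cas9, with a guide RNA against HBG1, by transfection. The VP64 domain derives from a herpesvirus activator, and VPR adds the p65 and Rta domains to it. SAM uses hairpins built into the guide to bring in further activation domains, and Suntag carries a peptide array that binds several copies of VP64. The control is labelled as guide only. No group is labelled as dCas9 without an activation domain. Nothing in the labels says that the 2 libraries of a group came from separate cultures, so their spread may be technical. A transfected culture also holds cells that took up little or no plasmid, and more expressing cells cannot be told apart here from more RNA per cell.

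The tables give transcript identifiers and no gene names, and 0 of the 9 identifiers of the members were found in the name tables used here. No member was assigned to a gene. The name table lists 6 genes in this locus in the order HBB, HBD, HBBP1, HBG1, HBG2 and HBE1, against 5 rows in the stretch. GENCODE release 29, on a later build than the hg19 of the files, lists HBG1 transcripts of 369, 779 and 1464 nt and HBG2 transcripts of 307, 614 and 694 nt. A length does not identify a gene, and these stand only beside the lengths of the members given below. The target in each library could not be checked under its own name, and neither could erythroid or kidney marker genes.

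Row uc001mah was abundant in SAM, intermediate in VPR and Suntag, and absent or barely counted elsewhere. Both SAM libraries held it, with 260 and 295 expected counts, which are RSEM's estimates of reads per row. The VPR libraries held 88 and 75, and the Suntag libraries 106 and 73. Each of these 6 libraries lay far above all VP64 and control libraries, of which the VP64 libraries held 0 and 0 and the control libraries 0 and 3.

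In counts per 1000000 (CPM), with the summed expected counts of a library as its total, row uc001mah stood at 75.7 and 66.5 in SAM. The VPR libraries stood at 17.4 and 10.1 CPM, and the Suntag libraries at 18.5 and 13.1 CPM. The lower SAM library was thus above the highest of the other groups, while the VPR and Suntag libraries were interleaved. Over the 4 pairs of single libraries the ratio of SAM to VPR ran from 3.82 to 7.52, that of SAM to Suntag from 3.60 to 5.79, and that of VPR to Suntag from 0.545 to 1.33. From summed counts SAM was 5.41 times VPR and VPR was 0.824 of Suntag. In these libraries the order was SAM first, then VPR and Suntag with overlapping values, then VP64 and the control, which were both at or under 3 counts a group.

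**Figure D1:**
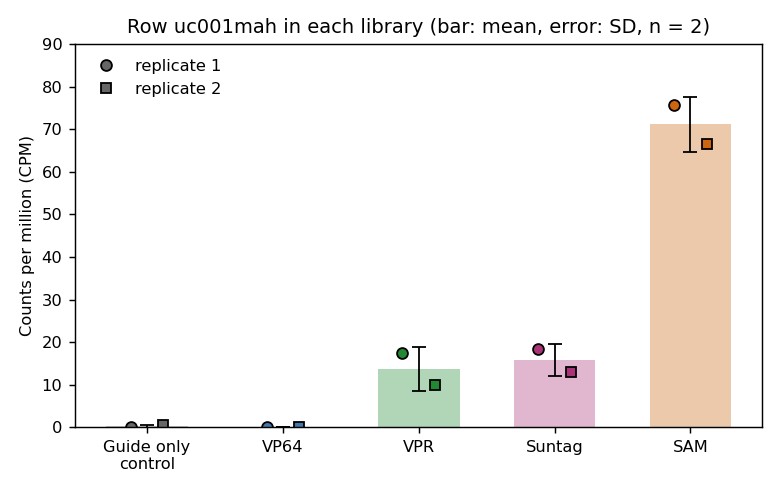
Level of row uc001mah in CPM (vertical axis) in the 5 groups, with 1 point for each library, a bar for the mean and an error bar for the SD (n = 2). The SAM libraries stand at 75.7 and 66.5 CPM, the VPR and Suntag libraries between 10.1 and 18.5 CPM, and the rest at or below 0.494 CPM.

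The SAM libraries averaged 71.1 CPM with an SD of 6.50 CPM (n = 2). The mean of the VPR libraries was 13.8 with an SD of 5.20 CPM, and that of the Suntag libraries 15.8 with an SD of 3.82 CPM. The first library was 1.14 times the second in SAM, 1.73 times in VPR and 1.41 times in Suntag. With 1 such ratio a group, a difference in spread between groups was not tested. In each of these groups the library numbered 1 had the higher CPM, and the numbers were not found to pair libraries across groups.

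On the deposited scale of transcripts per 1000000 (TPM), which divides by length, row uc001mah reached 235.72 and 185.71 in SAM. This placed it at rank 631 of 16709 rows with a TPM above 0 in the first SAM library and at rank 849 of 17019 in the second. In VPR it had 49.67 and 29.92 TPM, at ranks 3103 and 4699, and in Suntag 52.49 and 36.34 TPM, at ranks 3061 and 4358. A row that was listed at 0 in 1 control library and at 1.41 TPM in the other was thus among the more abundant rows of the SAM libraries. The mean TPM of SAM was 5.30 times that of VPR and 4.74 times that of Suntag.

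The position of row uc001mah among rows silent in the control was also described. In the control group 16674 rows held at most 3 summed counts, and among these row uc001mah had the highest sum in SAM, with 555 counts against 38.6 for the next. It was also first in VPR, with 163 counts against 77 for the next, and in Suntag, with 179 against 170. The lead was therefore wide in SAM and narrow in Suntag. These counts chose the row and carry no test.

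Reads of near-identical genes can be divided between rows, which leaves counts that are not whole. The counts of row uc001mah were whole numbers in all 10 libraries, within 0.01. Those of the 4 neighbours were whole too, but 3 of these rows held 0 counts and row uc001mal held 4, so theirs say little. Of the 20300 rows with any counts, 6721, or 33.1%, were whole in every library, a share not matched to the depth of row uc001mah. No division of reads between row uc001mah and another row was thus visible in these counts. Reads shared among the 4 transcripts inside the row would leave its count whole, so how its reads divide among them is not given by the count. With no names matched, whether these transcripts are of HBG1, of HBG2 or of both could not be told.

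The deposited length of the row bears on those transcripts. In RSEM the length of a row with several transcripts is their mean weighted by estimated abundance, and 92.5% of the 4582 such rows with 0 counts in at least 2 libraries kept 1 length in all of those. Row uc001mah was listed at 1016.75 nt in each of the 3 libraries where it had 0 counts. Where it had counts the length was shorter. It was 784.15 and 828.98 nt in SAM, 779.58 and 769.55 nt in VPR, and 802.22 and 832.67 nt in Suntag, which is 75.7% to 81.9% of the length at 0 counts. If the length at 0 counts is the plain mean of the 4 transcripts, the shorter ones carried more of the estimated abundance in the 6 high libraries than an even split would give.

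Mean lengths were 807 ± 31.7 nt in SAM, 775 ± 7.09 nt in VPR and 817 ± 21.5 nt in Suntag (SD, n = 2 each). Both VPR lengths lay below those of SAM and Suntag, by as little as the step from 779.58 to 784.15 nt, and the SAM and Suntag lengths overlapped. The control library with 3 counts gave 856.79 nt, a value from very few reads. With 2 libraries against 2, an exact two-sided permutation test cannot give a p below 0.333, and none was run on lengths.

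Among the 6 high libraries the length moved with the fragment length, taken as the transcript length less RSEM's effective length in rows over 5000 nt. The 3 high libraries with the shortest fragments were Suntag at 96.6 and 89.8 nt and the second SAM library at 97.5 nt, and these had the 3 greatest lengths. The VPR libraries, at 111.4 and 113.4 nt, and the first SAM library, at 116.0 nt, had the 3 shortest. The 2 SAM libraries thus fell on different sides. The part of fragment length in the estimated mix of transcripts was not tested.

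**Figure D2:**
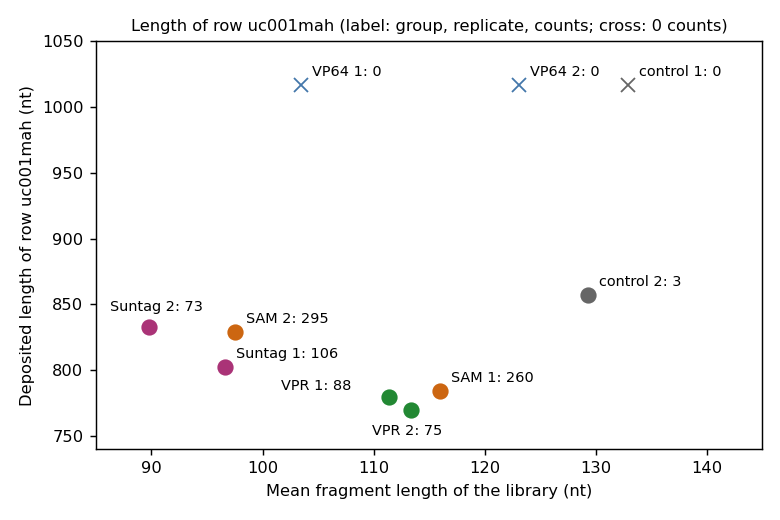
Deposited length of row uc001mah in nt (vertical axis) against the mean fragment length of the library in nt (horizontal axis), with each point labelled by group, replicate and expected count. Crosses are the 3 libraries with 0 counts, all at 1016.75 nt, and the 6 libraries of SAM, VPR and Suntag lie between 769.55 and 832.67 nt.

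The neighbours were silent or nearly so in every group. Rows uc001mae, uc001maf and uc001mag, of 1 transcript each and 626, 774 and 659 nt long, had 0 counts in all 10 libraries. A count of 0 in the 51082396 summed counts of the series allows up to 0.0587 CPM. In all, 11548 rows, or 36.3% of those listed, were at 0 in every library, so a silent row is common in these tables. Of the 904 counts of the 5 members, 900 were in row uc001mah, or 99.6%.

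Row uc001mal, of 2 transcripts, held 4 counts over the series. They were 1 in the first VP64 library, 1 in the first VPR library and 2 in the second Suntag library, and both SAM libraries and both control libraries had 0. The libraries with counts were not those in which row uc001mah was highest, but 4 counts are too few to say whether these rows change together. Its deposited length was 829 nt in the 3 libraries with counts and 892.5 nt in the 7 without. In 45.5% of rows the sum over the series was 4 counts or fewer.

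None of the 4 neighbours passed the filter on low counts, and 1 of the 5 members, row uc001mah, did. The neighbours were therefore not tested in the fit of 13241 rows, so that no call could be made for them in any of the 10 comparisons. The share of tested rows called by edgeR's quasi-likelihood test at an adjusted p under 0.05 against the control was 6.6% for VPR, 5.2% for SAM, 1.33% for Suntag and 0.816% for VP64. Between activators it was 4.29% for SAM against VP64, 5.68% for SAM against VPR, 1.72% for SAM against Suntag, 0.00755% for VPR against VP64, 0.234% for Suntag against VP64 and 0% for VPR against Suntag. With no filter on low counts, row uc001mal was tested, but it held at most 2 counts in a group. The absence of a call there says little, since so few counts could hardly give one. In that edgeR fit its adjusted p ran from 0.786 to 1, with 0 unadjusted p-values under 0.05, and DESeq2 also made 0 calls among the neighbours, for which it gave no adjusted p.

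The depth sets how much lower the neighbours were. A count of 0 over the 2 SAM libraries allows up to 0.381 CPM, and for row uc001mae it allows up to 0.733 CPM per kb of effective length. Row uc001mah stood at 100.7 CPM per kb in SAM. Per effective length it was at least 137-fold higher in SAM than row uc001mae, at least 176-fold higher than uc001maf, at least 146-fold higher than uc001mag and at least 208-fold higher than uc001mal, with each neighbour at a floor of 3 counts over the group. These bounds take row uc001mah at its observed count and leave out its own counting error.

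In VPR the same bounds were at least 42.2-fold for row uc001mae, 54.3-fold for uc001maf and 44.9-fold for uc001mag. In Suntag they were at least 43.9-fold, 56.1-fold and 46.6-fold. Row uc001mal had counts in these groups, and row uc001mah was 184 times its level per length in VPR (95% exact interval 32.6 to 7316) and 94.8 times in Suntag (25.9 to 789). These intervals are of ratios of Poisson rates from 1 and 2 counts of row uc001mal, and they cover counting error only. The floors cover the counting error of the neighbours alone. Neither the intervals nor the floors take account of the choice of row uc001mah for its counts in these libraries. In VP64 and the control row uc001mah and the neighbours could not be compared, since all of them were at or under 3 counts per group.

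**Figure D3:**
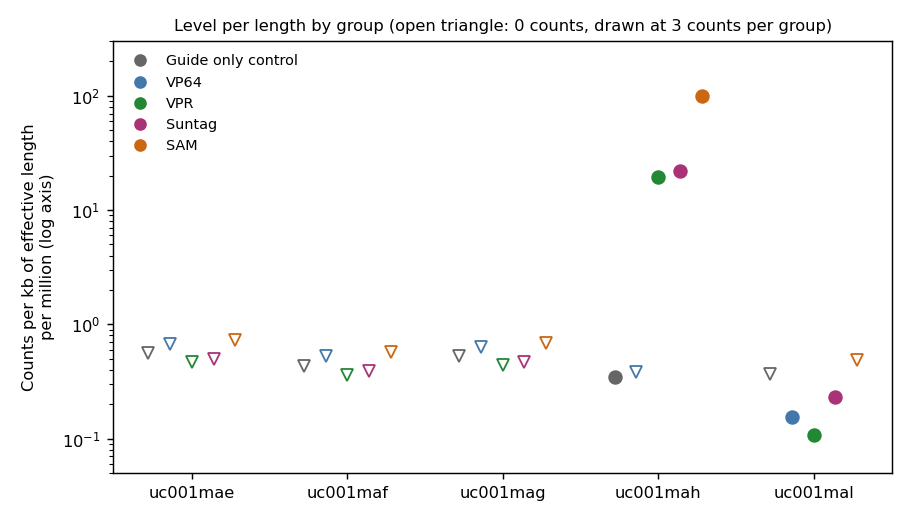
Summed counts in CPM per kb of effective length (vertical axis, log scale) for the 5 rows, by group. Filled circles are groups with counts, and open triangles are groups with 0 counts drawn at 3 counts per group. Row uc001mah stands at 100.7 in SAM, and the neighbours lie at or below 0.733.

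Rows beside the stretch in the numbering were near 0 as well. Of 12 rows numbered just before and after the stretch, 6 on each side, 11 were at 0 in all libraries and the other held 2 counts in all.

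Few rows shared the order of libraries seen in row uc001mah. In 41 of 13241 tested rows, or 0.31%, both SAM libraries lay above all VPR and Suntag libraries and these above all VP64 and control libraries in CPM. Row uc001mah is 1 of the 41 by construction, since the order was read from its own counts, which also chose it. Its mean CPM in SAM was 4.82 times the mean of VPR and Suntag, while in the other 40 rows this ratio ran from 1.05 to 1.91, with a median of 1.2. The mean of SAM over that of VP64 and the control had a median of 1.47 in those 40 rows and was 3.64 at most. The share and these ratios are a description and carry no test.

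By the correlation of log2(TPM + 1) over the 10 libraries, cluster 13388 was most like row uc001mah (r = 0.971) and cluster 27163 came next (r = 0.946). These values are the top of 13240 rows ranked on 10 points that share libraries and fall into groups, and they are given as a description. Cluster 13388 had 146.58 and 144.58 TPM in SAM. It had 136.68 and 140.16 TPM in the VPR libraries and 129.65 and 131.58 TPM in the Suntag libraries. The VP64 libraries had 112.44 and 110.07 TPM, and the control libraries 107.26 and 116.62 TPM. Its libraries fell in the same order of groups in TPM, but its mean in SAM was 1.30 times that in the control. For cluster 27163 that ratio was 1.19. Its Suntag libraries overlapped those of VPR and of SAM in TPM, while both SAM libraries lay above both VPR libraries. Both rows had counts that were not whole, and neither held the order in CPM, so the rows most like row uc001mah in pattern were unlike it in the size of the difference.

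**Figure D4:**
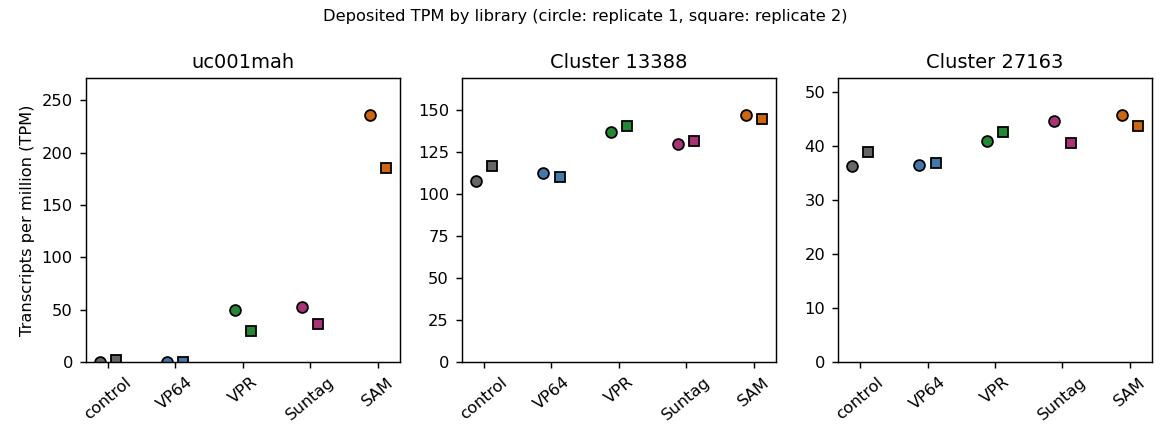
Deposited TPM (vertical axis, a separate scale in each panel) in each library of the 5 groups for row uc001mah and the rows most like it, 13388 and 27163, with circles for replicate 1 and squares for replicate 2. Row uc001mah runs from 0 to 235.72 TPM, while cluster 13388 runs from 107.26 to 146.58 TPM.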

How the data were processed

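Per the labels' protocols, poly(A)-selected, DNase-treated RNA was reverse-transcribed with random hexamers and made into libraries by tagmentation, which does not mark the strand, so antisense reads cannot be told apart. The submitters' processing notes name RSEM 1.2.1 and hg19, while the annotation behind the rows was not named by any source used here. Per the file headers, the authors deposited for each row an expected count (an estimated count), a TPM value, a length and an effective length. Library totals ran from 3316534 to 7447949 expected counts.

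Expected counts were rounded and fitted with edgeR 4.0.16 (R 4.3.3), with filterByExpr, TMM factors and the quasi-likelihood test over all 10 libraries. Adjustment was by Benjamini-Hochberg over 13241 rows within each of 10 comparisons. The test was checked on simulated data. DESeq2 1.42.0 was an alternative. Rows uc001mae, uc001maf, uc001mag, uc001mah and uc001mal are numbered 4228, 4230, 4231, 4232 and 4233 in the files. Floors are 3 counts over a group. The members, lists and rules were chosen with earlier results of these data known. The rule for named rows takes all members and the 2 rows of highest correlation. Gene lists by symbol could not be used, since no names were matched. No sequence of a member was found in the sources used here.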

Additional observations from a re-analysis of the deposited data

How the results depend on the processing

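Depth limits the neighbours, since a count of 0 over a group allows 0.240 to 0.381 CPM, and 2 libraries per group limit row uc001mah. The neighbours had 0 calls over the 10 comparisons under RLE factors, DESeq2, no filter, a minimum of 2-fold, fits of only the compared groups, a replicate block and each library left out, but none passed the filter in the fits that used it, so these zeros say nothing of stability. The replicate block gave 0 calls, also with no filter on low counts, an alternative chosen after seeing the data in which row uc001mal was tested. With 4 counts over the series, that row could hardly be called, so its unfiltered fits say little either. Same-numbered libraries did not deviate together (correlations of -0.0672 to 0.062 over 10 pairs of groups). Under TMM and RLE factors the level of row uc001mah in SAM was 68.4 and 68.6 CPM. Leaving out 1 library moved SAM over VPR between 4.05 and 7.0, SAM over Suntag between 3.82 and 5.39, and VPR over Suntag between 0.637 and 1.10, so the order of the latter pair turned without VPR replicate 2. The control held 0.494 CPM without its replicate 1 and 0 without its replicate 2. With a pseudocount of 0.1, or among rows with a mean TPM of at least 1, the 2 rows most like row uc001mah were the same.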
